A study of Mus musculus with 10 samples.

Results

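The genes described here encode the matrix metalloproteinases (MMPs), the ADAMTS proteases, the ADAMTS-like proteins and the TIMPs, the tissue inhibitors of metalloproteinases. They were taken by symbol from the deposited protein-coding table: 51 of its 21729 genes carried a name beginning with Mmp, Adamts, Adamtsl or Timp followed by a number. These were 23 MMP, 19 ADAMTS, 5 ADAMTS-like and 4 TIMP genes. A filter on low counts left 43 of them for testing, namely 17 MMP, 17 ADAMTS, all 5 ADAMTS-like and all 4 TIMP genes. The other 8 were not tested, with a highest count in any library of 3 for Mmp1a, 7 for Mmp1b, 2 for Mmp7, 6 each for Mmp20, Mmp21 and Mmp27, 13 for Adamts13 and 4 for Adamts19.

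RNA came from the blastema, the mass of proliferating cells that forms at the end of an amputated mouse digit tip. Wild type mice were compared with ΔLARM1/2 mutants, from which LARM1 and LARM2, limb enhancers of Lmx1b, had been deleted. Lmx1b encodes a LIM homeodomain factor that specifies dorsal identity in the limb. Both genotypes had amputated digits and a mixed background of CD1 and C57Bl/6, and tissue was collected 12 or 14 days post amputation (dpa), when the mice were 33 or 35 days old. Wild type had 2 libraries and the mutant had 3 on each day. Each library pooled tissue from 6 central hindlimb digits, so differences between single digits were not measured. The labels call the replicates biological but do not say that each came from other animals, so p-values measure the spread between these libraries only.

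MMPs are zinc-dependent endopeptidases that are made as inactive precursors and cleave collagens, other matrix proteins and cell surface proteins once their propeptide is removed. ADAMTS proteases are secreted enzymes that carry thrombospondin repeats: some cut the large proteoglycans, others trim procollagens, and ADAMTS-like proteins share the repeats but have no protease domain. TIMPs bind the active site of MMPs and hold them in check, and Timp3 also inhibits ADAM and ADAMTS enzymes. In an amputated digit tip, bone is resorbed and matrix is cleared before and while the blastema forms.

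Sequencing depth, as total expected counts, was between 69998104 and 101632364. In counts-per-million values (CPM), Lmx1b measured 1.69 to 2.94 in the wild type libraries and 0.0278 to 0.336 in the mutant ones. The library titled mutant 14 dpa replicate 1 has a genotype tag of wild type. Its Lmx1b level of 0.234 CPM lay within the range of the other mutants, and it was kept as mutant by its title. When it was placed in wild type instead, edgeR called 0 of the 43 genes over both days, with 19 at an unadjusted p under 0.05, and 0 of all genes. Read against markers of the cells that digit tissue can hold, summed fibroblast markers were 15490 to 29490 CPM in wild type and 2239 to 8097 CPM in mutants. Endothelial markers summed to 208 to 272 and 45.5 to 86.8 CPM, osteoblast markers to 205.5 to 425 and 14.45 to 123 CPM, and keratinocyte markers to 44120 to 65600 and 67340 to 139500 CPM in the same order. In pooled tissue, fewer cells of a type and less RNA per cell cannot be told apart, and the part of these marker differences in the results was not tested.

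Mutant 12 dpa replicate 3 stood apart for this gene set. Its level was more than 2-fold above both other mutant 12 dpa libraries for 10 of the 43 tested genes, against 3.71% of all tested genes. The 10 were Mmp12, Mmp8, Mmp3, Mmp9, Mmp13, Timp4, Timp1, Mmp10, Adamts5 and Adamtsl4, and results that rest on this library are given with and without it.

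Most of these genes that differed between genotypes were lower in mutants. Averaged over both days, 23 of the 43 tested genes were lower, 1 was higher and 19 did not pass, by edgeR's quasi-likelihood test with a Benjamini-Hochberg adjusted p under 0.05 over all 20216 tested genes. Among all tested genes 22.2% were lower and 21.5% higher, and 43.7% were called in either direction, against 55.8% of the metalloproteinase and inhibitor genes. The median log2 fold change was -0.72 over the 43 genes and 0.02 over all tested genes. Of the 23 lower genes, 14 were lower by more than 2-fold. By family, 11 of 17 ADAMTS, 7 of 17 MMP, 3 of 5 ADAMTS-like and 2 of 4 TIMP genes were lower, with medians of -0.96, -0.53, -0.64 and -0.47.

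The libraries of the 2 genotypes also lay apart for many of these genes. Every mutant library lay below every wild type library of its day, on both days, for 19 of the 43 genes in CPM, against 19.3% of all tested genes. All 19 were among the 23 called lower, and the groups of Adamts3, Adamts7, Adamts18 and Timp1 overlapped on at least 1 day. Without mutant 12 dpa replicate 3, 26 were lower and 1 higher of 42 tested, and the share of all tested genes in that fit is not given here. In TPM, the deposited unit scaled by gene length and library total, the fold changes of all genes shifted upward in mutants by a median of 0.14 on the log2(TPM + 1) scale. There, 15 were called lower and Mmp15 was called higher in place of Mmp12, and 71.8% of all calls were higher instead of 49.2%. The calls of Mmp2, Mmp19, Adamts3, Adamts6, Adamts7, Adamtsl5, Timp1 and Timp2 were lost on that scale, and in TPM 13 genes lay below wild type on both days without overlap, against 10.2% of all genes.

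**Figure D1:**
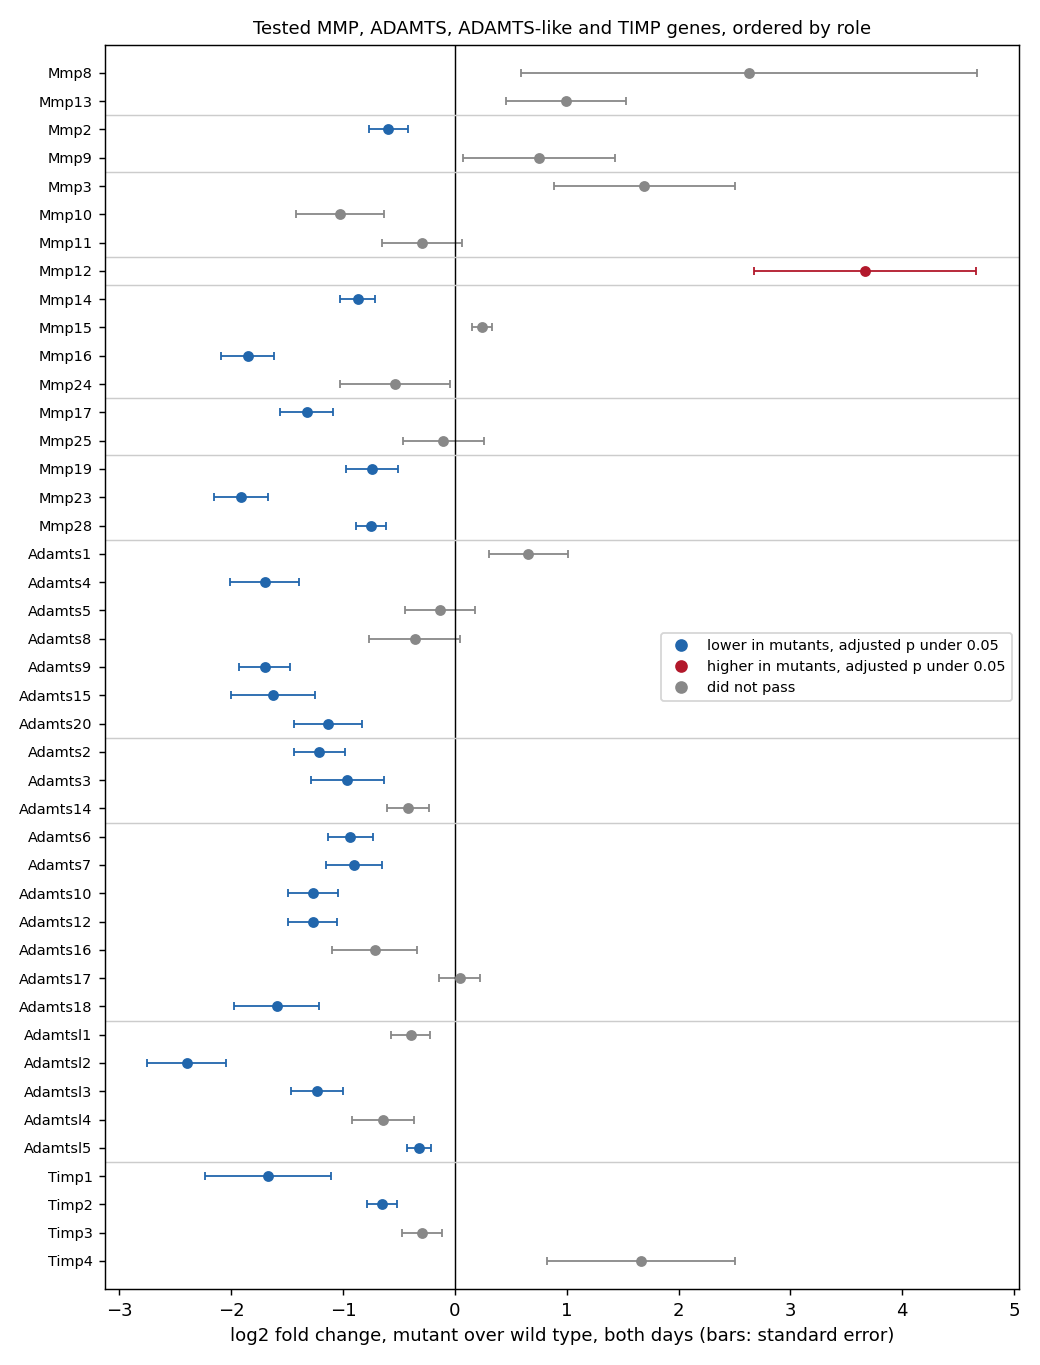
Fitted log2 fold change of mutant over wild type, averaged over both days (x axis), for each of the 43 tested genes (y axis), with bars of 1 standard error; grey lines separate roles. Blue points (23) are lower and the red point (Mmp12) is higher at an adjusted p under 0.05, and the 19 grey points did not pass.

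Of the 6 tested membrane-type MMPs 3 were lower and 0 higher. Mmp14 is the membrane-type collagenase that also activates the Mmp2 precursor together with Timp2, and at a mean of 55.3 TPM it was the MMP with the second highest level. Mmp14 measured 267 and 306.5 CPM in the wild type libraries and 114, 119.5 and 168 CPM in the mutant ones at 12 dpa. At 14 dpa it was at 184 and 173 CPM against 85.7, 139.5 and 119.5 CPM, so the genotypes did not overlap on either day. It was 1.825-fold lower over both days (log2 fold change -0.87, SE 0.15, adjusted p = 0.00209). Mmp16, a related transmembrane protease, measured 5.01 and 6.56 CPM in the wild type libraries and 1.42, 2.08 and 2.32 CPM in the mutant ones at 12 dpa. At 14 dpa the levels of Mmp16 were 8.11 and 5.48 CPM against 1.15, 2.23 and 1.29 CPM. No mutant library reached a wild type level, and the difference was 3.6-fold (log2 fold change -1.85, SE 0.24, adjusted p = 0.00047). The other transmembrane members did not pass: Mmp15 had a log2 fold change of 0.24 (adjusted p = 0.0555) and Mmp24 of -0.53 (adjusted p = 0.399). Mmp15 was called higher on both TPM scales, and in CPM when mutant 12 dpa replicate 1 or else wild type 12 dpa replicate 2 was left out (adjusted p = 0.0309 to 0.0412).

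Among the members held by a GPI anchor, Mmp17 was lower. Mmp17 measured 2.15 and 3.36 CPM in the wild type libraries and 1.13, 1.18 and 1.07 CPM in the mutant ones at 12 dpa, with 2.495 and 1.29 CPM against 0.586, 0.885 and 0.736 CPM at 14 dpa. It was 2.5-fold lower without overlap (log2 fold change -1.32, SE 0.24, adjusted p = 0.00221). Mmp25, the GPI-anchored enzyme of leukocytes, did not pass (log2 fold change -0.10, adjusted p = 0.838).

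All 3 tested MMPs outside the classical substrate groups were lower. Mmp23, which is anchored through its propeptide and released by cleavage, had the lowest adjusted p of the gene set. Its levels at 12 dpa were 10.9 and 12.4 CPM in wild type and 2.89, 2.95 and 3.435 CPM in mutants. At 14 dpa the values were 13.5 and 8.09 CPM against 1.615, 4.08 and 2.96 CPM. The groups were well apart, with a 3.75-fold difference (log2 fold change -1.91, SE 0.24, adjusted p = 0.00046). Mmp28, or epilysin, an MMP of keratinocytes, averaged 16.3 ± 2.03 CPM (SD, n = 4) in wild type and 9.74 ± 1.54 CPM (SD, n = 6) in mutants (log2 fold change -0.75, SE 0.13, adjusted p = 0.00209). Of the keratinocyte markers 7 of 10 were higher in mutants and 0 lower, while of the nail matrix and hair keratin genes 8 of 10 tested were lower and 0 higher, with sums of 15270 to 42450 CPM in wild type and 3294 to 11240 CPM in mutants. Their part in the level of Mmp28 was not tested. Mmp19 averaged 8.40 ± 0.688 CPM (SD, n = 4) and 5.22 ± 2.20 CPM (SD, n = 6), a log2 fold change of -0.74 (0.23 SE, adjusted p = 0.0279). The call of Mmp19 was lost without any one of the 4 wild type libraries, with adjusted p = 0.0533 to 0.0786.

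The gelatinases, which digest denatured collagen, were the most abundant MMPs together with Mmp14, and they did not behave alike. These 3 genes made up 72.6% to 85.9% of the summed MMP TPM in every library. Mmp2, made chiefly by mesenchymal cells, measured 222.5 and 234 CPM in the wild type libraries and 119, 137 and 179.5 CPM in the mutant ones at 12 dpa. At 14 dpa Mmp2 was at 201 and 181 CPM against 95.3, 178 and 121 CPM, with 1 mutant library just under the lower wild type one. The CPM difference was 1.51-fold (log2 fold change -0.60, SE 0.17, adjusted p = 0.0206). On the TPM scale it was smaller, with a log2 fold change of -0.12 and adjusted p = 0.585 by limma. In CPM Mmp2 also did not pass without wild type 12 dpa replicate 2 or wild type 14 dpa replicate 1, where adjusted p was 0.0645 and 0.0683.

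Mmp9, the gelatinase of osteoclasts, neutrophils and migrating keratinocytes, had the highest mean level of the set at 63.3 TPM. At 12 dpa Mmp9 measured 144 and 222 CPM in the wild type libraries and 179, 108 and 912 CPM in the mutant ones. By 14 dpa wild type gave 66.04 and 123 CPM and mutants 50.9, 108 and 209.8 CPM. The genotypes overlapped on both days and the difference did not pass (log2 fold change 0.75, SE 0.68, adjusted p = 0.401). Without mutant 12 dpa replicate 3 the log2 fold change was 0.01 over both days.

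**Figure D2:**
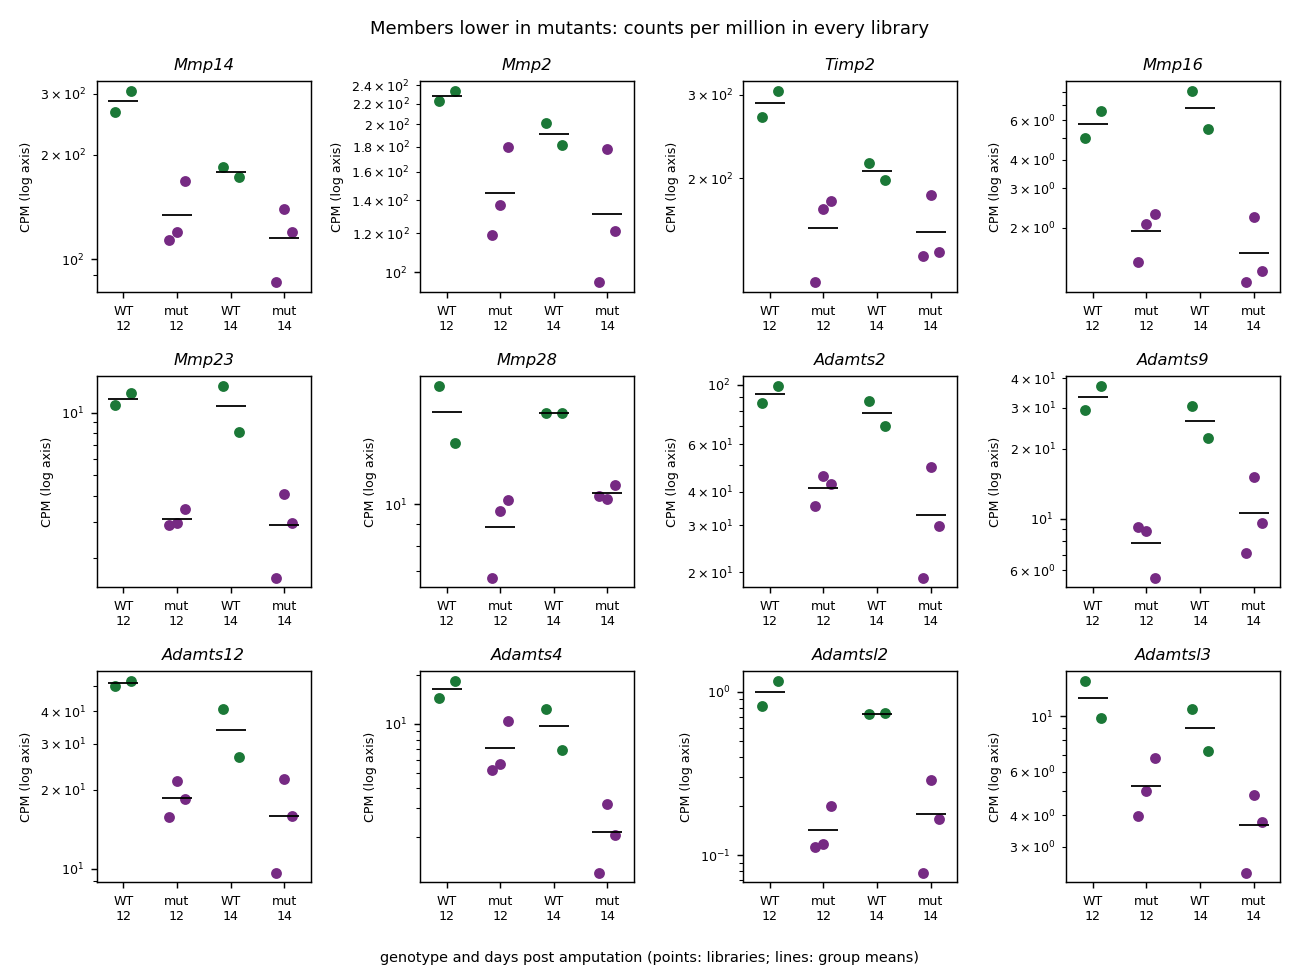
Level of 12 genes called lower in mutants, in CPM on a log axis, for each library (points) with the group mean (line), by genotype and days post amputation. For each of the 12 genes every mutant point lies below every wild type point of its day.

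The proteoglycan-cutting ADAMTS enzymes divided into 4 lower genes and 3 that did not pass. Adamts9, which cleaves versican and aggrecan, measured 29.1 and 37.2 CPM in the wild type libraries and 9.16, 8.8 and 5.57 CPM in the mutant ones at 12 dpa. The 14 dpa libraries gave 30.5 and 22.2 CPM for wild type and 7.08, 15.05 and 9.55 CPM for mutants. No mutant library reached a wild type level, and Adamts9 was 3.245-fold lower over both days (log2 fold change -1.70, SE 0.23, adjusted p = 0.000721). Adamts4, a major aggrecanase of cartilage, measured 14.6 and 18.5 CPM in the wild type libraries and 5.18, 5.66 and 10.4 CPM in the mutant ones at 12 dpa. On the later day wild type had 12.5 and 6.92 CPM and mutants had 1.2, 3.18 and 2.04 CPM. The groups did not overlap (log2 fold change -1.70, SE 0.31, adjusted p = 0.00286), although the Adamts4 values may hold reads from the opposite strand.

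Adamts15, another versican-cleaving enzyme, measured 1.59 and 1.54 CPM in the wild type libraries and 0.946, 0.685 and 0.671 CPM in the mutant ones at 12 dpa, with 3.18 and 2.24 CPM against 0.169, 0.955 and 0.597 CPM at 14 dpa. It was 3.09-fold lower (log2 fold change -1.63, SE 0.37, adjusted p = 0.00697). Adamts20, the closest relative of Adamts9, measured 0.722 and 0.803 CPM in the wild type libraries and 0.394, 0.375 and 0.313 CPM in the mutant ones at 12 dpa, with 1.065 and 0.712 CPM against 0.182, 0.477 and 0.5 CPM at 14 dpa. These are low levels, and although the groups did not overlap (log2 fold change -1.13, SE 0.30, adjusted p = 0.0139), the result did not pass without wild type 14 dpa replicate 1 (adjusted p = 0.0600).

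Adamts1, which cleaves versican and had the highest mean level of the ADAMTS genes at 6.545 TPM, did not follow the others. It measured 16.9 and 42.3 CPM in the wild type libraries and 57.6, 30.6 and 101 CPM in the mutant ones at 12 dpa, with 19.7 and 17.5 CPM against 24.04, 21.8 and 19.5 CPM at 14 dpa. The genotypes overlapped on both days and the fold change did not pass (log2 fold change 0.66, SE 0.35, adjusted p = 0.161). Leaving out mutant 12 dpa replicate 2 brought Adamts1 to an adjusted p of 0.0477, in the direction of higher mutant levels. Adamts5, the other major aggrecanase, had a log2 fold change of -0.13 (adjusted p = 0.759) and Adamts8 of -0.36 (adjusted p = 0.494). Adamts5 was at -0.41 (adjusted p = 0.199) without mutant 12 dpa replicate 3. Adamts1 and Adamts5 are neighbours on chromosome 16, and Adamts15 and Adamts8 on chromosome 9, in the RefSeq annotation of GRCm38.p6.

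Of the enzymes that remove the amino-terminal propeptide of fibrillar procollagens, Adamts2 and Adamts3 were lower. Adamts2, the main procollagen I processing enzyme of skin, measured 85.4 and 99.1 CPM in the wild type libraries and 35.2, 45.6 and 42.8 CPM in the mutant ones at 12 dpa. At 14 dpa the values were 86.6 and 70.3 CPM against 19.1, 49.15 and 29.8 CPM. All 6 mutant libraries were below all 4 wild type ones, a 2.32-fold difference (log2 fold change -1.21, SE 0.23, adjusted p = 0.00333). Adamts3, which also processes the lymphatic growth factor Vegfc, had wild type values of 2.085 and 3.66 CPM against mutant values of 0.946, 1.525 and 2.82 CPM at 12 dpa, and 2.19 and 3.33 CPM against 0.846, 1.53 and 1.18 CPM at 14 dpa. Its groups overlapped at 12 dpa (log2 fold change -0.96, SE 0.33, adjusted p = 0.0371). The Adamts3 call was lost, with adjusted p = 0.0566 to 0.155, without any one of wild type 12 dpa replicate 2, wild type 14 dpa replicate 2, mutant 12 dpa replicates 1 or 2, or mutant 14 dpa replicates 1 or 3. Adamts14 did not pass (log2 fold change -0.42, adjusted p = 0.0971), except without mutant 14 dpa replicate 2 (adjusted p = 0.0479).

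Among the remaining ADAMTS genes, 5 of 7 tested were lower. Adamts12, which can cleave the cartilage protein Comp, measured 50.1 and 52.3 CPM in the wild type libraries and 15.8, 21.7 and 18.5 CPM in the mutant ones at 12 dpa. By 14 dpa wild type gave 40.7 and 26.85 CPM and mutants 9.65, 22.03 and 15.95 CPM. No mutant value reached wild type, and the difference was 2.415-fold (log2 fold change -1.27, SE 0.22, adjusted p = 0.00211). Adamts10, an enzyme linked to fibrillin microfibrils, had wild type values of 7.14 and 6.82 CPM against mutant values of 3.895, 3.08 and 3.08 CPM at 12 dpa, and 12.01 and 7.65 CPM against 2.34, 5.15 and 3.11 CPM at 14 dpa. It too was lower without overlap (log2 fold change -1.26, SE 0.22, adjusted p = 0.00198).

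Adamts18 measured 5.355 and 5.32 CPM in the wild type libraries and 1.89, 1.81 and 0.9735 CPM in the mutant ones at 12 dpa, with 3.545 and 1.76 CPM against 0.534, 1.82 and 0.611 CPM at 14 dpa. It was lower with overlap at 14 dpa, where wild type replicate 2 was low (log2 fold change -1.59, SE 0.38, adjusted p = 0.00849). Adamts6, the paralogue of Adamts10, averaged 5.43 ± 1.43 CPM (SD, n = 4) in wild type and 2.84 ± 0.679 CPM (SD, n = 6) in mutants (log2 fold change -0.93, SE 0.20, adjusted p = 0.00508). Adamts7, the paralogue of Adamts12, averaged 5.91 ± 0.947 CPM (SD, n = 4) and 3.30 ± 1.60 CPM (SD, n = 6) (log2 fold change -0.90, SE 0.25, adjusted p = 0.0159). Adamts7 did not pass without wild type 12 dpa replicate 2 or wild type 14 dpa replicate 1 (adjusted p = 0.0506 or 0.0662), and the gene overlaps Tbc1d2b on the opposite strand. Adamts16 and Adamts17 did not pass, at log2 fold changes of -0.72 (adjusted p = 0.149) and 0.04 (adjusted p = 0.861).

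The ADAMTS-like proteins, which act in the microfibril network of fibrillins, held the largest fall of the set. Adamtsl2, which binds fibrillin 1 and a latent TGF-beta binding protein, measured 0.8175 and 1.17 CPM in the wild type libraries and 0.113, 0.116 and 0.201 CPM in the mutant ones at 12 dpa. The 14 dpa libraries gave 0.729 and 0.743 CPM for wild type and 0.0781, 0.288 and 0.167 CPM for mutants. Its counts were low, at most 86 in a library, but the groups were far apart, with a 5.27-fold difference (log2 fold change -2.40, SE 0.36, adjusted p = 0.000915). Adamtsl3 had wild type values of 13.9 and 9.87 CPM against mutant values of 3.997, 5.001 and 6.78 CPM at 12 dpa, and 10.7 and 7.22 CPM against 2.36, 4.83 and 3.78 CPM at 14 dpa. It was 2.35-fold lower without overlap (log2 fold change -1.23, SE 0.23, adjusted p = 0.00286). Adamtsl5 averaged 7.5 ± 1.12 CPM (SD, n = 4) in wild type and 5.99 ± 0.279 CPM (SD, n = 6) in mutants (log2 fold change -0.32, SE 0.11, adjusted p = 0.0367). That small difference lost its call, with adjusted p = 0.0507 to 0.168, without any one of wild type 12 dpa replicate 2, the pair of wild type 14 dpa libraries taken singly, mutant 12 dpa replicates 1 or 2, or mutant 14 dpa replicates 2 or 3. On the TPM scale Adamtsl5 had a log2 fold change of -0.04. Adamtsl1 and Adamtsl4 did not pass, at -0.39 (adjusted p = 0.0906) and -0.64 (adjusted p = 0.0875). Without mutant 12 dpa replicate 3 Adamtsl4 was called lower over both days (log2 fold change -0.90, adjusted p = 0.00982) and at 14 dpa (adjusted p = 0.0476), and DESeq2 and the fit with a replicate block called it lower over both days as well. Adamtsl1 was called lower without wild type 12 dpa replicate 1, without wild type 14 dpa replicate 1 and in male libraries only (adjusted p = 0.0347 to 0.0471).

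The inhibitors differed among themselves. Timp2, the partner of Mmp14 in activating Mmp2 and the inhibitor with the highest mean level at 49.15 TPM, measured 269.6 and 306 CPM in the wild type libraries and 121, 172 and 179 CPM in the mutant ones at 12 dpa. At 14 dpa Timp2 was at 215 and 198.5 CPM against 137.5, 185 and 140 CPM. The groups did not overlap and Timp2 was 1.57-fold lower (log2 fold change -0.65, SE 0.13, adjusted p = 0.00439), but on the log2(TPM + 1) scale the difference was -0.34 with adjusted p = 0.130 by limma. Timp3, which binds to the matrix, had wild type values of 129 and 118 CPM against mutant values of 72.7, 83.9 and 149 CPM at 12 dpa, and 113 and 116 CPM against 91.85, 88.8 and 99.04 CPM at 14 dpa. Mutant 12 dpa replicate 3 was above both wild type libraries and the difference did not pass (log2 fold change -0.29, SE 0.18, adjusted p = 0.213). Without that library Timp3 had a log2 fold change of -0.48 and adjusted p = 0.00269.

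Timp1, the inducible inhibitor of most secreted MMPs, measured 18.6 and 15.8 CPM in the wild type libraries and 7.54, 2.53 and 20.4 CPM in the mutant ones at 12 dpa. On the later day wild type had 20.5 and 14.1 CPM and mutants had 1.02, 4.335 and 3.28 CPM. At 12 dpa mutant replicate 3 was as high as wild type, and at 14 dpa all 3 mutant libraries were far below. Timp1 passed over both days by a small margin (log2 fold change -1.67, SE 0.57, adjusted p = 0.044), and its call was lost without any one wild type library, mutant 12 dpa replicate 1, or mutant 14 dpa replicates 1 or 3 (adjusted p = 0.0707 to 0.123). Leaving out mutant 12 dpa replicate 3 gave Timp1 a log2 fold change of -2.18 and adjusted p = 0.00979. Timp4 had at most 14 counts in a library and at most 5 in a wild type one, and did not pass (adjusted p = 0.132). It was called higher without wild type 12 dpa replicate 2 (adjusted p = 0.0407) and fell under the filter on low counts without mutant 12 dpa replicate 3.

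Protease and inhibitor levels were also set against each other per library. The ratio of summed MMP TPM to summed TIMP TPM was 1.97 and 2.31 in wild type and 3.19, 2.43 and 4.99 in mutants at 12 dpa. At 14 dpa it was 1.77 and 2.02 in wild type and 1.72, 2.28 and 2.84 in mutants. All 3 mutant libraries were above wild type at 12 dpa, and the genotypes overlapped at 14 dpa. The ratio is given as a description, with no test. The highest ratio was in mutant 12 dpa replicate 3, where Mmp9 took the largest part.

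The lower calls of the edgeR fit of all 10 libraries included none in a group of neighbouring MMP genes. In the RefSeq annotation of GRCm38.p6, a run of 10 neighbouring MMP genes on chromosome 9 holds Mmp13, Mmp12, Mmp1b, Mmp3, Mmp1a, Mmp10, Mmp8, Mmp27, Mmp20 and Mmp7 in that order. Of its 5 tested genes (Mmp13, Mmp12, Mmp3, Mmp10 and Mmp8) 0 were called lower and 1, Mmp12, was called higher, but Mmp10 was called lower by DESeq2, limma-voom and other alternatives given with its values. Apart from Mmp12, which the rule for named genes gave, these genes were chosen after their values were seen. Mmp1a and Mmp1b had at most 3 and 7 counts in a library, and their values are uncertain.

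Short stretches of the promoters of this run are printed because 7 of its genes share a letter pattern ahead of the start site. The pattern was TGACTCA or TGAGTCA, each the reverse complement of the other and known as the AP-1 site that binds Fos and Jun dimers. It was looked for on both strands in the 250 bases before each start in the RefSeq promoter table of GRCm38.p6. The sequences below run 5′ to 3′ on the plus strand with the AP-1 letters in capitals and 30 bases on each side where the window holds them.
Mmp13, chr9:7272449-7272513: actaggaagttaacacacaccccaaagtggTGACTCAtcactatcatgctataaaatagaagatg
Mmp12, chr9:7347300-7347366: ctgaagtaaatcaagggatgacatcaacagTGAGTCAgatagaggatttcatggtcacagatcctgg
Mmp3, chr9:7445746-7445812: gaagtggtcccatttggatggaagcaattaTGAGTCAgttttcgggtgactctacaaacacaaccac
Mmp10, chr9:7502249-7502315: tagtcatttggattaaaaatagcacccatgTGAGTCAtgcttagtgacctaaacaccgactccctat

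The letters stood 35 bases before the start of Mmp13, 44 before Mmp12, 46 before Mmp3 and 63 before Mmp10. Promoter windows were matched for 36 of the 51 genes, giving 39 windows, and 7 of these (17.9%) held the letters, against 4.46% of all 32851 windows. The 7 belonged to Mmp13, Mmp12, Mmp3, Mmp10, Mmp1a, Mmp1b and Mmp7, paralogues that share descent and sequence. Among genes called lower over both days, 0 of 15 windows, from 14 genes, held them, Mmp10 not being among these genes. At the share of all windows, 0 of 15 says little. Among genes more than 2-fold up in mutant 12 dpa replicate 3, 4 of 9 windows (44.4%) did. Those 4 belonged to Mmp13, Mmp12, Mmp3 and Mmp10, genes of the same run, picked by their level in that library. The shares of these sets are therefore a description only. The homeodomain core TAATTA, its own reverse complement, occurred in 2 of the 39 windows (5.13%), against 4.84% of all windows. These matches describe letters and say nothing of binding.

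Mmp12, the macrophage metalloelastase, was the 1 gene called higher. Mmp12 measured 0.232 and 0.0544 CPM in the wild type libraries and 1.31, 0.543 and 12.95 CPM in the mutant ones at 12 dpa, with 0.19 and 0.423 CPM against 1.09, 1.41 and 1.94 CPM at 14 dpa. In counts this was 17 and 4 against 116, 42 and 1157 at 12 dpa, and 13 and 41 against 84, 142 and 140 at 14 dpa. All mutant libraries were above all wild type libraries of their day, as for 18% of all tested genes. The difference passed over both days (log2 fold change 3.67, SE 0.99, adjusted p = 0.0178) and on neither day alone. Without mutant 12 dpa replicate 3 its log2 fold change was 2.46 over both days with a lower adjusted p of 0.00482, and Mmp12 was then called higher at 12 dpa (2.69, adjusted p = 0.0457) and at 14 dpa (2.23, adjusted p = 0.0291) too. Without wild type 12 dpa replicate 1 the log2 fold change was 4.36. Its call did not hold without wild type 12 dpa replicate 2 or either wild type 14 dpa library (adjusted p = 0.0576 to 0.0776), and limma-voom gave adjusted p = 0.102. Summed macrophage markers were 91.7 to 122 CPM in wild type and 39.25 to 140 CPM in mutants, with 4 of 9 tested markers lower and 0 higher, and their part in the level of Mmp12 was not tested.

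Mmp13 and Mmp3 had their highest levels in mutant 12 dpa replicate 3. Mmp13, the main interstitial collagenase of rodents, made by osteoblasts and hypertrophic chondrocytes, measured 28.03 and 21.45 CPM in the wild type libraries and 78.7, 36.4 and 287 CPM in the mutant ones at 12 dpa. At 14 dpa the values were 24.5 and 31.4 CPM against 14.6, 23.6 and 23.3 CPM. Every mutant library was above wild type at 12 dpa and below it at 14 dpa in CPM, and in TPM the genotypes overlapped at 14 dpa. Over both days Mmp13 did not pass (log2 fold change 0.99, SE 0.53, adjusted p = 0.166), with 0.38 on the log2 scale without mutant 12 dpa replicate 3. Mmp3, stromelysin, had wild type values of 1.145 and 0.98 CPM against mutant values of 4.67, 1.37 and 30.1 CPM at 12 dpa, and 0.934 and 1.42 CPM against 0.482, 1.45 and 1.35 CPM at 14 dpa. It was above wild type in all 3 mutant libraries at 12 dpa, overlapped at 14 dpa and did not pass (log2 fold change 1.70, SE 0.81, adjusted p = 0.123), and without mutant 12 dpa replicate 3 its log2 fold change was 0.70. Leaving out mutant 12 dpa replicate 2 brought Mmp13 to an adjusted p of 0.0349 and Mmp3 to 0.0308. Shares of all tested genes whose libraries lay apart on a single day are not given here.

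Mmp10 and Mmp8 completed the tested genes of the run. Mmp10, a stromelysin of wound keratinocytes, measured 1.38 and 3.035 CPM in the wild type libraries and 0.912, 0.84 and 2.45 CPM in the mutant ones at 12 dpa, with 1.255 and 1.05 CPM against 0.677, 0.298 and 0.333 CPM at 14 dpa. Its mutant levels were below wild type at 14 dpa and overlapped it at 12 dpa, and it did not pass (log2 fold change -1.03, SE 0.39, adjusted p = 0.0584). That call was near the threshold: without mutant 12 dpa replicate 3 Mmp10 was called lower over both days (log2 fold change -1.37, adjusted p = 0.0109) and at 14 dpa (adjusted p = 0.0371). It was also called lower over both days by DESeq2, by limma-voom, with upper quartile factors, with a stricter filter, with sex as a covariate, and in the fits that left out wild type 12 dpa replicate 1 and, separately, mutant 14 dpa replicate 1 (adjusted p = 0.0264 to 0.0487). Mmp8, the neutrophil collagenase, had 30 counts in mutant 12 dpa replicate 3 and 30 in wild type 14 dpa replicate 2, and at most 15 in any other library (adjusted p = 0.326, and 0.556 without mutant 12 dpa replicate 3). Mmp11, a stromelysin encoded elsewhere, did not pass either (log2 fold change -0.29, adjusted p = 0.526).

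**Figure D3:**
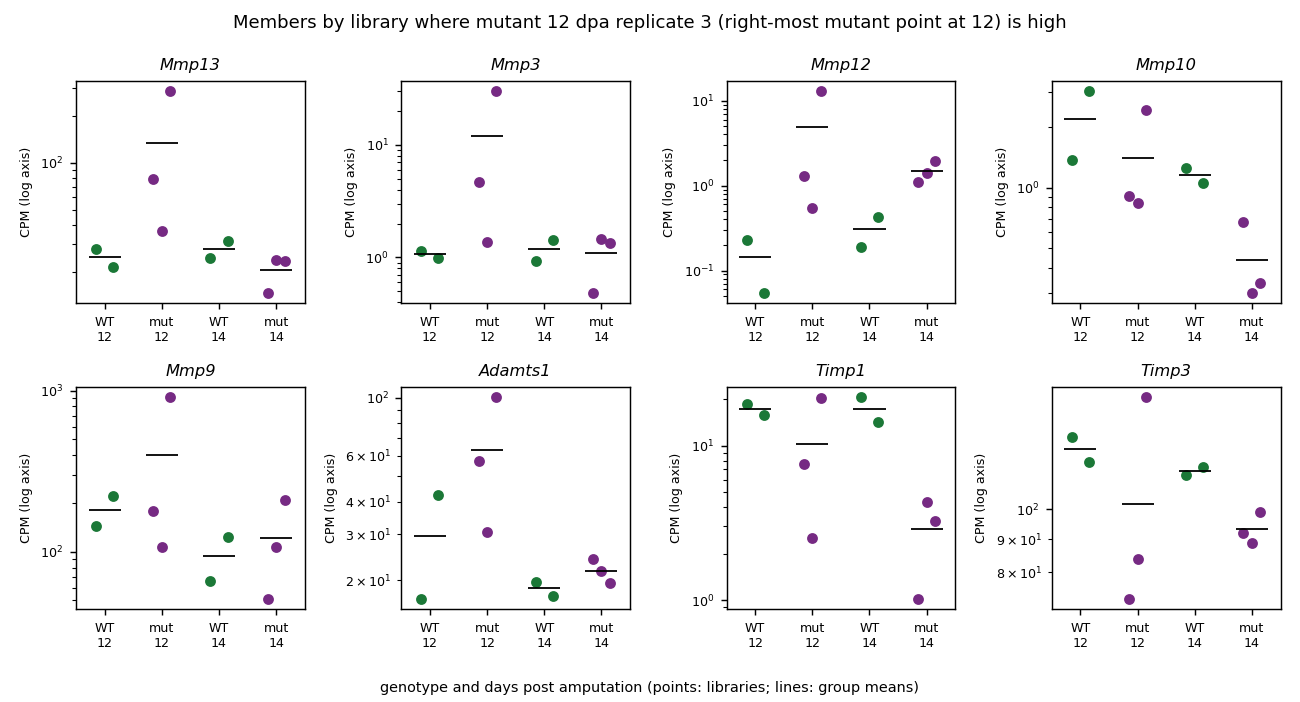
Level of 8 genes in CPM on a log axis, for each library (points) with the group mean (line), by genotype and days post amputation. Mutant 12 dpa replicate 3, the right-most of its group, is the highest of the 3 mutant 12 dpa libraries in every panel, at 912 CPM for Mmp9 and 287 CPM for Mmp13.

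Cell type markers in the same library were read beside these levels. In mutant 12 dpa replicate 3 the 9 osteoclast markers summed to 854 CPM, against 236 and 262 CPM in the other mutant 12 dpa libraries and 343 and 358.5 CPM in wild type. Ctsk, the collagen-degrading cathepsin of osteoclasts, is part of that sum. It was at 486 CPM there and at 91.1 and 63.0 CPM in the other mutant 12 dpa libraries. Of 8 tested osteoclast markers, 0 were called lower and 0 higher over both days, at 12 dpa or at 14 dpa. Macrophage markers summed to 140 CPM in that library, against 59.2 and 47.2 CPM. The sum of neutrophil markers did not single it out: it was 540 CPM, against 631 and 321 CPM in the other 2. In wild type at 12 dpa it was 13.8 to 20.0 CPM. Abundant genes weigh most in such a sum, and the list was split. Of 8 tested neutrophil markers 4 were higher in mutants and 0 lower at 12 dpa. At 14 dpa 3 were higher and 3 lower. The neutrophil granule gene Elane was at 0 in every library. Their part in the MMP levels was not tested.

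On single days, the lower pattern was seen on both. At 12 dpa 13 of 43 genes were lower and 0 higher, against 9.34% of all tested genes lower, 7.18% higher and 16.5% called in either direction. At 14 dpa 17 were lower and 0 higher, against 17.2% lower, 16.1% higher and 33.3% in either direction. Genes higher at an unadjusted p under 0.05 numbered 3 at 12 dpa and 0 at 14 dpa, and DESeq2 called Mmp3, Mmp12 and Mmp13 higher at 12 dpa and 0 at 14 dpa. By edgeR, 20 and 22 of the 43 genes had an unadjusted p under 0.05 in either direction, against 6802 and 9264 of all 20216 tested genes. The medians over the 43 genes were -0.56 at 12 dpa and -0.82 at 14 dpa. Passing on both days were 11 genes: Mmp14, Mmp16, Mmp17, Mmp23, Mmp28, Adamts2, Adamts9, Adamts10, Adamts12, Adamtsl2 and Adamtsl3. Some of these daily calls were not firm. With sex as a covariate and on both TPM scales, Adamts2, Adamts10 and Adamtsl3 lost their call at 12 dpa and Mmp14 at 14 dpa. A replicate block also ended the 12 dpa calls of Adamts2, Adamts10, Adamtsl3 and Mmp17, and the 14 dpa call of Adamts12. On log2(TPM + 0.1) only Mmp23, Adamts9 and Adamts12 of the 11 genes kept their call at 12 dpa. Adamts18 and Timp2 passed at 12 dpa only, and Adamts4, Adamts6, Adamts7, Adamts15, Mmp19 and Timp1 at 14 dpa only, which does not show that they differ between days. The remaining 5 called genes, Mmp2, Mmp12, Adamts3, Adamts20 and Adamtsl5, passed only with both days together. The daily counts leaned on single libraries: 7 were called at 12 dpa without wild type replicate 1 of that day, 2 (Mmp28 and Adamts9) without wild type replicate 2 and 8 without mutant replicate 1. At 14 dpa 2 (Mmp16 and Mmp23) were called without wild type replicate 1, 10 without wild type replicate 2 and 11 without mutant replicate 3. Shares of all tested genes in these fits are not given here, so the drops are not shown to be particular to this gene set.

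The difference between the days was itself tested and found for none of the 43 genes by edgeR (0 of all tested genes). By unadjusted p under 0.05 there was 1, against 1763 of all 20216 tested genes. It was Mmp13, whose log2 fold change was 2.44 at 12 dpa and -0.45 at 14 dpa, a difference of -2.89 (SE 1.06, adjusted p = 0.545 by edgeR). DESeq2 and limma-voom called 0. For Timp1 the fitted difference was -0.76 at 12 dpa and -2.58 at 14 dpa.

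**Figure D4:**
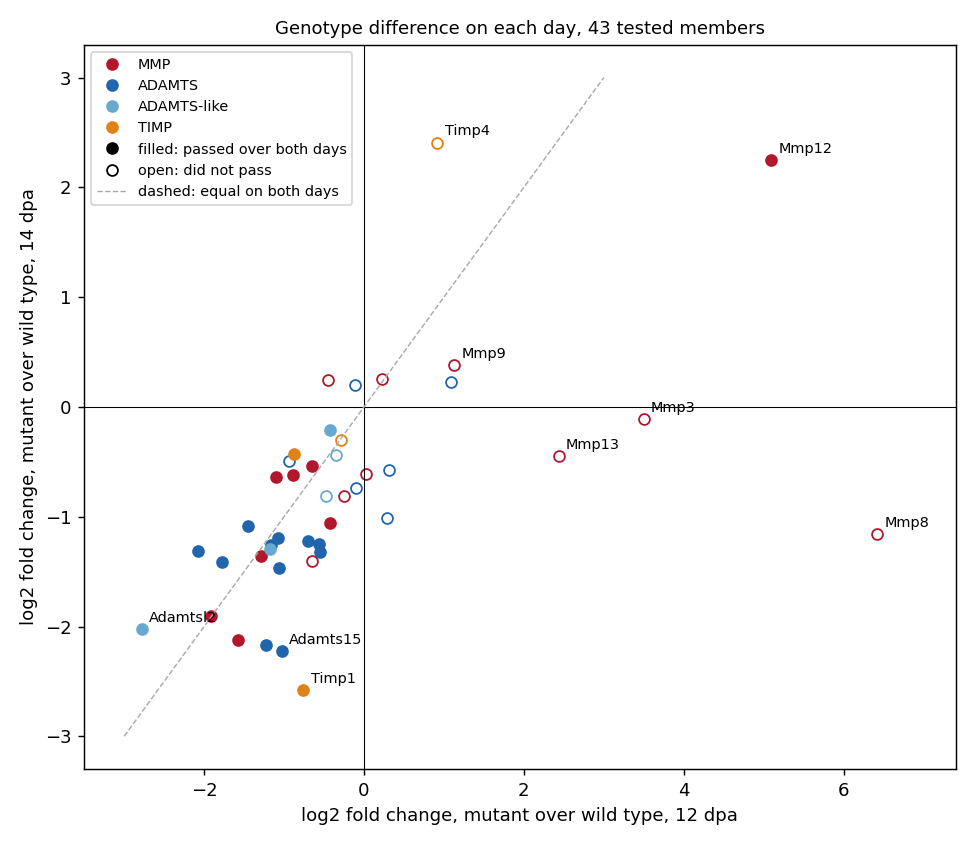
Fitted log2 fold change of mutant over wild type at 12 dpa (x axis) and 14 dpa (y axis) for the 43 tested genes, coloured by family; filled points passed over both days. Most filled points lie in the lower left part, and Mmp13, Mmp3 and Mmp8 lie to the right of 0 at 12 dpa and below 0 at 14 dpa.

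Between 12 and 14 dpa within a genotype, no gene of the set passed in edgeR. In wild type 0 of 43 were called, against 0 of all tested genes, and 2 had an unadjusted p under 0.05: Mmp14 with a log2 fold change of -0.68 and Timp2 with -0.48. In mutants 0 were called, against 0.0346% of all tested genes, and 9 had an unadjusted p under 0.05, namely Mmp3, Mmp10, Mmp13, Mmp19, Adamts1, Adamts4, Adamts7, Adamts14 and Timp1. Of all 20216 tested genes, 1654 in wild type and 3803 in mutants had an unadjusted p under 0.05, so these counts do not set the genes apart. DESeq2 called 0 in wild type and 5 lower at 14 dpa in mutants (Mmp3, Mmp10, Mmp13, Adamts1 and Adamts4), and limma-voom called 0 in both.

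Other parts of the matrix protease system were read from 8 lists of 68 genes, 64 of them tested. Over both days 29 were lower, 10 higher and 25 did not pass, with a median log2 fold change of -0.51, against 22.2% lower and 21.5% higher among all tested genes. The procollagen and fibrillin list also held Comp and Vwf. Most substrate genes were lower over both days, while at 12 dpa 5 of the 10 genes of that list and 2 of 7 proteoglycan genes passed. Over both days 9 of the 10 genes of the procollagen and fibrillin list were lower and 0 higher. They were led by Col2a1, the cartilage collagen, at a log2 fold change of -5.57 (SE 0.35, adjusted p = 2.01e-05), and Col5a2 at -1.15 (SE 0.19, adjusted p = 0.00175). Of 7 proteoglycan and link protein genes 5 were lower and 0 higher, with Hapln1, which ties aggrecan to hyaluronan, at -3.07 (SE 0.40, adjusted p = 0.000798) and Bgn, or biglycan, at -1.27 (SE 0.24, adjusted p = 0.00322).

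Other processing enzymes and inhibitors were mixed, and the convertases, cathepsins and receptors had shares of calls near or under those of all tested genes. Of the 5 tested astacin and tolloid genes 2 were lower: Tll1, a procollagen C-proteinase, at a log2 fold change of -1.93 (SE 0.20, adjusted p = 0.000181), and Pcolce, which enhances that cleavage, at -1.998 (SE 0.31, adjusted p = 0.00173). Among 9 tested convertases and plasminogen activators 2 were lower and 2 higher, with Plat, the tissue plasminogen activator, at -1.21 (SE 0.16, adjusted p = 0.000620) and the convertase Pcsk5 at -0.79 (SE 0.21, adjusted p = 0.0137). Of 9 tested inhibitors outside the TIMPs 4 were lower and 2 higher, and the median was 0.42, opposite in sign to the balance of the calls. Serpinf1 was at -1.75 (SE 0.26, adjusted p = 0.00126).

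The ADAM sheddases and the endocytic genes showed both directions. Of 11 ADAM genes 6 were lower and 4 higher, with Adam8, a sheddase of leukocytes and osteoclasts, at 1.28 (SE 0.17, adjusted p = 0.000505) and Adam17, which releases TNF, at 0.48 (SE 0.07, adjusted p = 0.00103). Among 6 cathepsins 1 was higher, Ctsd at 0.39 (SE 0.12, adjusted p = 0.0216), and Ctsl did not pass at 0.22 (adjusted p = 0.116). Of 7 receptors and membrane partners Mrc2, which takes up cleaved collagen, was lower at -0.74 (SE 0.17, adjusted p = 0.00723), and Cd44, which holds Mmp9 at the cell surface, was higher at 0.40 (SE 0.12, adjusted p = 0.0238).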

How the data were processed

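RNA was sequenced in 10 libraries of digit tip blastema with a stranded total RNA kit, per the labels' protocols. Tools named in the submitters' processing notes were STAR 2.7.8a, RSEM 1.3.0 and FastQC, and the build was GRCm39. Expected counts per gene were deposited by the authors without normalization, and 13.9% were not whole. TPM and FPKM values per gene were deposited as well, scaled by gene length and library, per the file headers; FPKM was not used. How strand was used in counting is not known, so Adamts4, Adamts7, Adamts9, Mmp11, Mmp12, Mmp19, Mmp24, Mmp28, Timp1, Timp3 and Timp4 may hold reads of a gene on the opposite strand. For Mmp12, Mmp28 and Adamts9 the mean level of such a gene was at most 0.064 TPM. On the same strand, Adamtsl1 overlaps Sh3gl2 (5.17 TPM) and Timp2 overlaps Cep295nl (0.798 TPM).

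Expected counts were rounded and tested with edgeR 4.0.16 (limma 3.58.1, DESeq2 1.42.0, R 4.3.3): filterByExpr (minimum count 10, minimum total 15) left 20216 of 55416 genes, TMM scaling was used, and 1 quasi-likelihood fit with robust dispersions held all 4 groups. P-values were adjusted by Benjamini-Hochberg over all tested genes at 0.05. CPM values use TMM-scaled library sizes. Each SE was taken from the log2 fold change and its F statistic. The fit was tested on simulated data, with changes placed only in genes above a minimum level. It recovered 75% of 2-fold and 91% of 4-fold changes over both days, with 4 false calls among 19639 genes. Replicates of a group differed by a chi-square per degree of freedom of 114 to 223, so none was counted as a duplicate. Groups were taken from titles; the titles and descriptions disagree on the numbers of the wild type 14 dpa pair, and those of the titles were kept. Sex, read from Y-linked counts, gave 1 female library per group. The members and lists were chosen with earlier results of these data known. Values in every library are given for called members (the 16 largest fold changes), the TIMPs and the 3 MMP and 3 ADAMTS genes of highest mean TPM; pathway lists are given with their 2 lowest p-values, except that 1 such gene is not reported here. Promoter sequences are from RefSeq (GRCm38.p6) and other coordinates are not given. Alternatives were other scalings, tools, filters, TPM pseudocounts of 1 and 0.1, a replicate block, sex, the genotype tag and each library left out.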

Additional observations from a re-analysis of the deposited data

Results flagged for a closer look

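Mmp13 was flagged by a rule on libraries set apart in opposite directions on the 2 days. All 3 mutant libraries were above both wild type libraries at 12 dpa and below both at 14 dpa in CPM. The share of all tested genes that meet this rule is not given here, so the pattern is not shown to be unusual. The difference between the days was -2.89 on the log2 scale (SE 1.06, adjusted p = 0.545 by edgeR), so it did not pass. In TPM the genotypes overlapped at 14 dpa. Mutant 12 dpa replicate 3, at 287 CPM, had the highest level.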

How the results depend on the processing

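Over both days the count of called genes (24) was 16 to 27 under every alternative except 1: with mutant 14 dpa replicate 1 placed in wild type by its tag, edgeR called 0 over both days, 0 at 12 dpa and 0 at 14 dpa, with 19, 16 and 1 at an unadjusted p under 0.05. At 12 dpa (13) the count was 7 on log2(TPM + 1), 4 on log2(TPM + 0.1) and 1, Adamts9, in male libraries only. At 14 dpa (17) it was 8, 10 and 6 under the same settings. Leaving out 1 library gave 18 to 27 over both days, 2 to 15 at 12 dpa and 2 to 21 at 14 dpa. Between days in mutants (0), DESeq2 called 5 and log2(TPM + 0.1) called 1, Adamts4. Without mutant 12 dpa replicate 3 and mutant 14 dpa replicate 1 together, an alternative chosen after seeing the data, 26, 16 and 18 were called. The cause of these shifts was not tested. Shares of all tested genes are not given beside these counts, so the shifts are not shown to be particular to this gene set.

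Deviations of same-numbered libraries correlated at -0.121 to 0.0862, so the replicate numbers gave no sign of pairing libraries. Libraries of different numbers were not compared. With the replicate number as a block, 25 genes were called over both days, 8 at 12 dpa and 17 at 14 dpa.

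Direction was followed under every alternative only for the called genes and some others, so the list below is not complete. Genes that changed direction had no call in the comparison concerned, although Adamtsl5 was called over both days. Without mutant 12 dpa replicate 3, Adamts5 at 12 dpa went from 0.31 to -0.22 and Adamts17 at 12 dpa from -0.11 to 0.023. With the replicate block Mmp9 was at -0.24 over both days, -0.036 at 12 dpa and -0.44 at 14 dpa. Mmp9 was at -0.33 at 12 dpa without mutant 12 dpa replicate 3, -0.35 when mutant 14 dpa replicate 1 was also left out, and -0.25 at 14 dpa without mutant 14 dpa replicate 3. Mmp3 at 14 dpa was 0.025 on log2(TPM + 1), 0.040 on log2(TPM + 0.1), 0.18 without wild type 14 dpa replicate 2, 0.24 without mutant 14 dpa replicate 1, 0.24 without both libraries named above, and 0.56 with the tag. Adamtsl5 at 14 dpa was 0.017 and 0.027 on the TPM scales. Mmp10 at 12 dpa was 0.028 without wild type 12 dpa replicate 2 and -1.33 without both libraries named above. Timp4 was -0.047 at 12 dpa without wild type 12 dpa replicate 1 and -0.19 at 14 dpa with the tag. Leaving out 1 library, these log2 values ran from -0.33 to 1.59 for Mmp9 at 12 dpa and -0.25 to 0.84 at 14 dpa, from -0.38 to 0.24 for Mmp3 at 14 dpa, and from -0.047 to 5.47 for Timp4 at 12 dpa. With 2 wild type libraries a day, the number of libraries limits the precision, and genes under about 100 counts, such as Adamtsl2, Timp4 and Mmp8, also by depth.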
